A study of Mus musculus with 2 samples.

Results

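The machinery that carries the signal of the T cell receptor was examined as 41 named genes in a table of genes near STAT5 binding regions. The members were found by gene symbol and sorted by role into receptor chains, coreceptors and accessory receptors, kinases, adaptors, effector enzymes and the CBM complex, negative regulators, and calcineurin with NFAT. Of the 41 genes, 36 had a row among the 4934 genes of the table. The other 5, Cd4, Cd5, Lat, Cbl and Nfatc3, had none and count here as genes without an assigned region. The assay was ChIP-seq, which pulls down chromatin with an antibody, here against STAT5, and sequences the attached DNA. The cells were effector CD8 T cells of the C57BL/6 strain, from OT-I donors whose transgenic receptor recognises the SIINFEKL peptide of ovalbumin. All cells of both groups had been transferred into mice, primed there with that peptide and agonists of CD134 and CD137, and sorted from spleen 4 days later. The antibody is labelled as anti-STAT5. The control group was 1 library of cells that received no cytokine, and the IL-2 group was 1 library of cells held in culture with IL-2 at 0.5 µg/ml for 1 hour.

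The T cell receptor binds peptide on MHC molecules and passes the signal through the CD3 chains and the zeta chain, whose tails are phosphorylated by Lck and Fyn and then bound by the kinase Zap70. Adaptors around Lat and Lcp2 gather enzymes that open calcium, Ras and protein kinase C branches, which lead to the factors NFAT, AP-1 and NF-kappaB. IL-2 acts on effector CD8 T cells through another receptor, whose JAK kinases phosphorylate STAT5, and STAT5 dimers bind DNA at the motif TTCNNNGAA. All values below are heights of the STAT5 signal at DNA near these genes and say nothing of the genes' RNA, so the identity of the cells could not be checked by marker expression. They come from 1 library per group, so no replicate error could be given and IL-2 was not tested against control.

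Of all 4934 listed genes, every one had a region called in the IL-2 library and 12 had an interval called in the control library, so the table favours IL-2 by the way it was made. The table-wide median of the mean height per gene was 5 in control and 20.75 with IL-2. The sources used here state neither the number of reads behind a height nor whether the libraries were scaled to each other. For each gene the table gives the mean height over its regions in each library and the highest peak in either library. The highest peak was taken here as an IL-2 height. From these, the IL-2 height of 11 of the 131 pairs of a member and a region followed without doubt, and for the rest the highest height and the sum of the others are given.

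The highest region whose height could be assigned to a position lay at the promoter of Rasgrp1, the exchange factor that turns on Ras downstream of diacylglycerol. It was centred at position 117342976 of chromosome 2, 99 bases upstream of the gene start, in the mm10 build. Its height was 8 in control and 140 with IL-2. The other region assigned to Rasgrp1, 63357 bases from the start and just beyond the gene end, was shared with Fam98b and stood at 3 in control and 11 with IL-2. So the mean of Rasgrp1, 5.5 in control and 75.5 with IL-2, joined a strong and a weak region, and its log2 ratio of 2.94 was the largest of the 36 members. RefSeq promoter windows of assembly GRCm38.p6, which run from 250 bases before to 50 after a start, were found for 29 of the 41 members, 42 windows in all. A region position fell inside a window of 6 members, which were Rasgrp1, Cd8a, Lck, Zap70, Csk and Dgka. The windows of Rasgrp1 and of the coreceptor and kinase genes Cd8a, Lck and Zap70 are shown. Those of Rasgrp1 and Zap70 hold the strongest and the weakest of the regions with known height in these windows. The heights of the regions in the Cd8a and Lck windows were not known. Capitals mark TTCNNNGAA, which reads the same on both strands.
Rasgrp1, chr2:117342828-117343127, minus strand: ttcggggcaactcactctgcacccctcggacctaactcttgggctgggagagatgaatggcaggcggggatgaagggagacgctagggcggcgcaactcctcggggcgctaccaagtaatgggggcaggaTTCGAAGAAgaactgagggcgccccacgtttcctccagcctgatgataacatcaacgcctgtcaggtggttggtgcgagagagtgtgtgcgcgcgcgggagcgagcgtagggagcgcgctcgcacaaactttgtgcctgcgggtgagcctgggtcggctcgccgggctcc
Cd8a, chr6:71373177-71373476, plus strand: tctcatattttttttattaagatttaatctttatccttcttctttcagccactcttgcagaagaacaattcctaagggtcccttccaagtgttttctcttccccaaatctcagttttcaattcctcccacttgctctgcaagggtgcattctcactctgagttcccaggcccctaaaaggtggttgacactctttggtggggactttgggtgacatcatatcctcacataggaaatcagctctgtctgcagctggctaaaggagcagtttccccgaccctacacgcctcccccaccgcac
Lck, chr4:129558323-129558622, minus strand: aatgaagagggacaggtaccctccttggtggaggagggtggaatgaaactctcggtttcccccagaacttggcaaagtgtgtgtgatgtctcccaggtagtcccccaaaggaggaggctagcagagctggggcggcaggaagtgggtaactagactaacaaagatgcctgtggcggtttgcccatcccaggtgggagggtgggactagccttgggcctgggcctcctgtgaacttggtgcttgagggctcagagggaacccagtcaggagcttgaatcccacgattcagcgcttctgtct
Zap70, chr1:36761548-36761847, plus strand: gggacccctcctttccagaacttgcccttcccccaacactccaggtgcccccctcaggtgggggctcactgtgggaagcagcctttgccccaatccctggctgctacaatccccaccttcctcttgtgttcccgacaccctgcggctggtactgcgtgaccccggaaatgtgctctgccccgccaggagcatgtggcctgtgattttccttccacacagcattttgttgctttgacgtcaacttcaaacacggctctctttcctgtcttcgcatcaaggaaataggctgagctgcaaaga
The Rasgrp1 window holds the motif as TTCGAAGAA, 120 bases before the start and with its middle 17 bases from the region position. No match stands in the windows of Cd8a, Lck and Zap70, nor in those of Csk and Dgka with a region. TTCNNNGAA was present in 8.29% of all 32817 promoter windows and in 46.3% of the 434 windows that hold a region position. Over the whole table, the IL-2 height was known for 132 of 179 regions inside promoter windows with the motif. Their median was 23 (interquartile range 16 to 42.25). In windows without the motif it was known for 152 of 207 regions, with a median of 15 (12 to 19). Among the known heights, the 140 at Rasgrp1 was the highest with the motif, and 105 was the highest without it. The region in the Cd8a window, without the motif, had no known height and could reach 107. Cd3d (TTCCTAGAA) and Ubash3b (TTCCAAGAA) held the motif in a promoter window with no region position in it. The same letters with 4 bases in place of 3 between them, a spacing that cannot begin at the same base as the motif, were present in 6.94% of all windows and in those of Cd3e and Txk. A match of letters is a description and does not show a bound site.

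The receptor chains were all listed, 4 of 4, but 3 of them through weak regions. Cd3d, Cd3g and Cd3e encode the delta, gamma and epsilon chains of CD3 and lie side by side on chromosome 9. Cd3d and Cd3g shared 1 region, 1414 bases inside Cd3d and 2769 bases upstream of Cd3g, which stood at 5 in control and 19 with IL-2. Cd3e had 1 region 5482 bases upstream of its start, with 5 in control and 15 with IL-2. These heights lay below the table-wide IL-2 median. Cd247, which encodes the zeta chain, differed from them, with a mean of 8 in control and 46.5 with IL-2. Its 2 regions, 1383 and 14647 bases inside the gene, had heights of 81 and 12 with IL-2, although the table does not tell which had which.

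Among coreceptors and accessory receptors, 4 of 6 were listed, and Cd8a stood above the others. Cd8a, the CD8 alpha chain, had 4 regions with a mean of 6.25 in control and 42.25 with IL-2, and a highest peak of 107. They lay 9203, 3843 and 19 bases upstream of the start and 14509 bases downstream of it, and the last was shared with Rmnd5a and had at most 26 with IL-2. The highest peak of Cd8a was therefore at 1 of its 3 upstream regions. Cd8b1, the partner CD8 beta chain from the same locus, had 2 regions with a mean of 4.5 in control and 13 with IL-2, and heights of 17 and 9 with IL-2. Cd2, an adhesion receptor, had 5 regions around a gene of 12.0 kb, with a mean of 5.8 in control, 22.2 with IL-2 and a highest peak of 38. Cd6, a scavenger-type receptor that binds CD166, had 3 regions with 6.33 in control, 19.67 with IL-2 and a highest peak of 30, and 1 of them lay downstream inside A430093F15Rik. Cd4, the coreceptor of helper T cells, and Cd5, a receptor that dampens the signal, had no row.

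All 8 kinases were listed, with 45 pairs of gene and region, the most of any role. Prkcq, the protein kinase C theta that links the receptor to NF-kappaB, had 8 regions with a mean of 4.88 in control and 51.63 with IL-2. Its highest peak, 196, was the highest of all members, and the other 7 regions together had 217. Fyn, a Src family kinase, had 8 regions with 5.75 in control, 44.38 with IL-2 and a highest peak of 121. Both genes had 7 of their 8 regions inside the gene and 1 upstream. Prkch, the eta form of protein kinase C, had the most regions of any member, 13, with 4.54 in control and 31.15 with IL-2. Its highest peak, 81, made up the lowest share of a summed IL-2 height among the members (81 of 405), so its signal was spread over many regions. Prkce, the epsilon form, had 5 regions in the largest gene of the set (490.1 kb), with 6.6 in control and 19.6 with IL-2. It was 1 of 2 members with an interval called in the control library, at 133175 bases from the start, beside a region called with IL-2 at 133511 bases.

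Tec and Txk, which are kinases of the Tec family and neighbours on chromosome 5, shared their strongest regions. These lay at 72749088, 3685 bases inside Txk, and at 72761408, 8635 bases upstream of Txk and inside Tec. With IL-2 they had heights of 41 and 37, in an order the table does not give. Tec had no other region, with a mean of 5 in control and 39 with IL-2, and both regions lay over 100 kb from its start, closer to that of Txk. Txk had a further region at 21104 bases with 4 in control and 13 with IL-2, which brought its means to 4.67 and 30.33.

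Lck, which phosphorylates the CD3 chains, had 5 regions with a mean of 4.4 in control and 21 with IL-2. Its highest peak, 33 with IL-2 and 3 in control, lay beyond the end of Lck and 378 bases upstream of Hdac1, a histone deacetylase gene that shares the region. A further pair of its regions was shared with Fam167b and had between 11 and 21 each. Lck is known to be transcribed from a distal and a proximal promoter. The region 15209 bases inside the gene by the deposited start, at position 129558432, lay 60 bases upstream of a downstream RefSeq start, in the window shown above. Its height could be anywhere from 7 to 33. Zap70 had 1 region, 165 bases upstream of the deposited start and shared with 4933424G06Rik, with 6 in control and 13 with IL-2. Its log2 ratio of 0.71 was the lowest of the members.

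**Figure D1:**
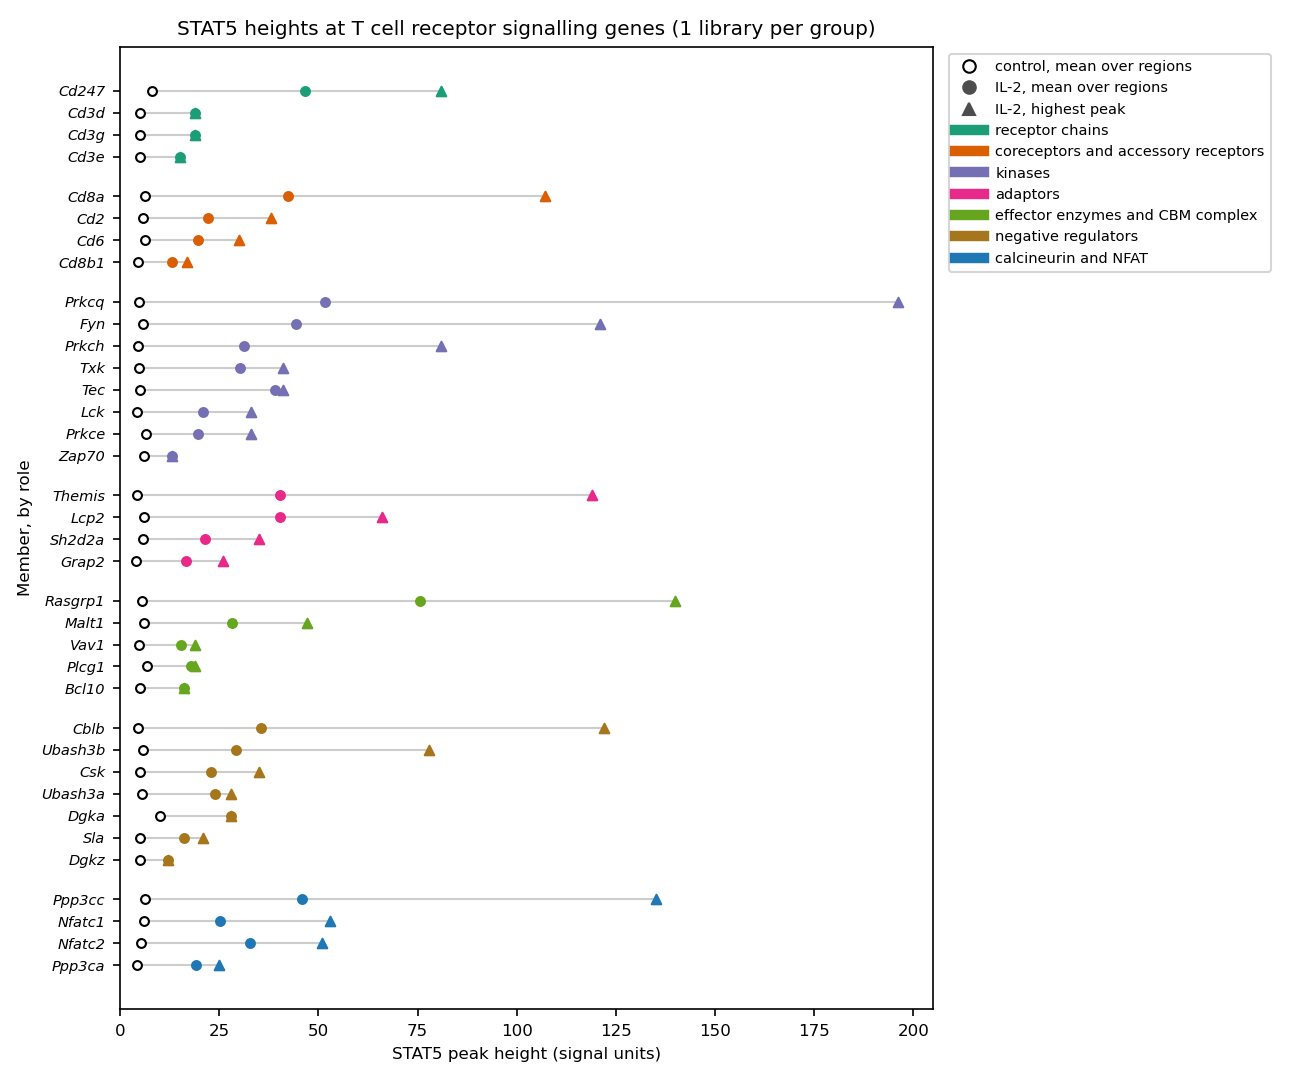
Mean control height (open circles), mean IL-2 height (filled circles) and highest IL-2 peak (triangles) of the 36 listed members, in signal units and grouped by role, from 1 library per group. Control means sit between 4 and 10, while the highest peaks run from 12 at Dgkz to 196 at Prkcq.

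Of the adaptors, 4 of 5 were listed, and all 13 of their regions were assigned to no other gene. Themis, a protein needed for T cell selection in the thymus, had 4 regions inside the gene with a mean of 4.25 in control and 40.25 with IL-2. Its highest peak was 119 and its other 3 regions together had 42. Lcp2, the SLP-76 scaffold, had 3 regions within its first 27 kb with 6 in control, 40.33 with IL-2 and a highest peak of 66. Sh2d2a, an adaptor that binds Lck, had 3 regions with 5.67 in control, 21.33 with IL-2 and a highest peak of 35, and 1 of them lay 93 bases inside the start. Grap2, the Gads adaptor that ties Lcp2 to Lat, had 3 regions with 4 in control, 16.67 with IL-2 and a highest peak of 26. Lat, the membrane scaffold itself, had no row.

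All 5 effector enzymes and CBM genes were listed, and those other than Rasgrp1 had lower heights. Malt1, the protease of the CBM complex, had 3 regions, all downstream of the gene end, with a mean of 6 in control, 28.33 with IL-2 and a highest peak of 47. Bcl10, the Malt1 partner, had 1 region 7418 bases upstream of its start with 5 in control and 16 with IL-2. Vav1, an exchange factor that acts on the cytoskeleton, had 3 regions with 4.67 in control, 15.33 with IL-2 and a highest peak of 19. Plcg1, the phospholipase that makes the calcium and diacylglycerol signals, also had 3 regions and a highest peak of 19, with means of 6.67 in control and 18 with IL-2. Its 3 regions had between 16 and 19 each, so no region of Plcg1 stood out.

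Negative regulators were listed for 7 of 8, and 19 of their 22 regions lay inside the genes. Cblb, a ubiquitin ligase that restrains activation, had 6 regions with a mean of 4.5 in control, 35.5 with IL-2 and a highest peak of 122. All of them lay between 23779 and 115747 bases inside the gene, none near its start. Its relative Cbl had no row. Ubash3b, a phosphatase that acts on Zap70, had 7 regions inside the gene with 5.86 in control, 29.29 with IL-2 and a highest peak of 78, and 4 of them stood between 52118 and 59542 bases from the start. Its paralog Ubash3a had 2 regions with 5.5 in control and 24 with IL-2, and single heights of 28 and 20. Csk, which phosphorylates the inhibitory tyrosine of Lck, had 2 regions upstream of the deposited start with 5 in control and 23 with IL-2, and single heights of 35 and 11. Dgka and Dgkz are kinases that consume diacylglycerol, the activator of Rasgrp1. Dgka had 1 region, shared with Wibg, with 10 in control and 28 with IL-2, the highest control mean per gene among the members. Dgkz had 1 region with 5 in control and 12 with IL-2, the lowest IL-2 mean per gene among the members. Sla, an adaptor that lowers receptor levels, had 3 regions with 5 in control, 16 with IL-2 and a highest peak of 21. Sla lies inside the thyroglobulin gene Tg, to which the 3 regions were also assigned.

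Calcineurin and NFAT genes were listed for 4 of 5. Ppp3cc, a catalytic subunit of the calcium-dependent phosphatase calcineurin, had 6 regions in its first 17065 bases with a mean of 6.33 in control, 45.83 with IL-2 and a highest peak of 135. An interval was also called in the control library near Ppp3cc, 663 bases upstream of the start, at position 70290112 of chromosome 14. Ppp3ca, the alpha form of the subunit, also had 6 regions, with 4.17 in control, 19.17 with IL-2 and a highest peak of 25. The highest peak was 21.7% of the summed IL-2 height at Ppp3ca and 49.1% at Ppp3cc. Nfatc2, a factor that calcineurin releases to the nucleus, had 4 regions in the distal part of the gene or beyond it, from 69175 to 127959 bases from the start, with 5.25 in control, 32.75 with IL-2 and a highest peak of 51. Nfatc1, the form that NFAT induces in activated cells, had 4 regions with 6 in control, 25.25 with IL-2 and a highest peak of 53. Nfatc3 had no row.

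**Figure D2:**
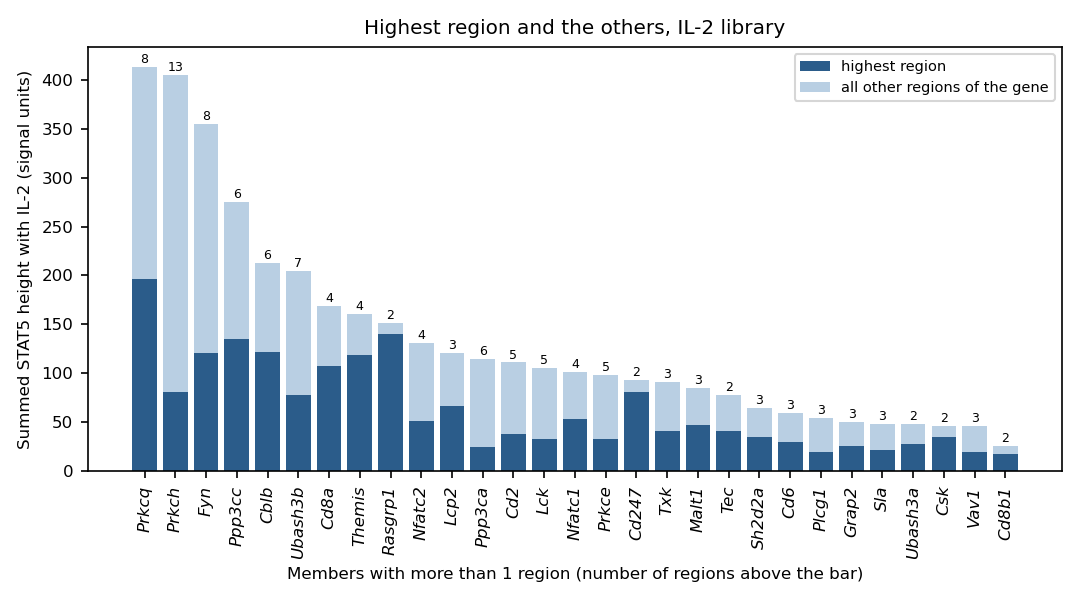
Summed IL-2 height over all regions of the 29 members with more than 1 region, in signal units, split into the highest region (dark) and all others (light), with the number of regions above each bar. Rasgrp1 (140 of 151) and Cd247 (81 of 93) rest on 1 region, whereas Prkch (81 of 405) and Ppp3ca (25 of 115) are spread over many.

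Most members had several regions. More than 1 region was assigned to 29 of the 36 (80.6%), against 33.3% of all listed genes, and 4 or more to 14 (38.9%), against 8.25%. The median was 3 regions for the members and 1 for all listed genes. By role the median was 1 for receptor chains, 3.5 for coreceptors and accessory receptors, 5 for kinases, 3 for adaptors and for effector enzymes, 2 for negative regulators and 5 for calcineurin and NFAT. Member genes were longer, with a median of 46.4 kb against 20.7 kb, and a longer gene has more room for regions. Per 100 kb of gene and flanks of 10 kb, the members had a median of 3.93 regions and all listed genes 3.10, so the gap was smaller on that scale. Among genes of 20.4 to 115.9 kb, the middle range of the members, 15 of 18 members had more than 1 region (83.3%), against 698 of 1971 listed genes (35.4%). The densest members were short genes of the cell surface, with 15.6 regions per 100 kb at Cd2 and 15.5 at Cd8a, and the sparsest was Prkce with 0.98. A share of 87.8% of the members was listed at all, against 19.1% of all protein-coding RefSeq genes. The members were chosen with earlier results of these data known, so these shares describe the set and support nothing about it.

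**Figure D3:**
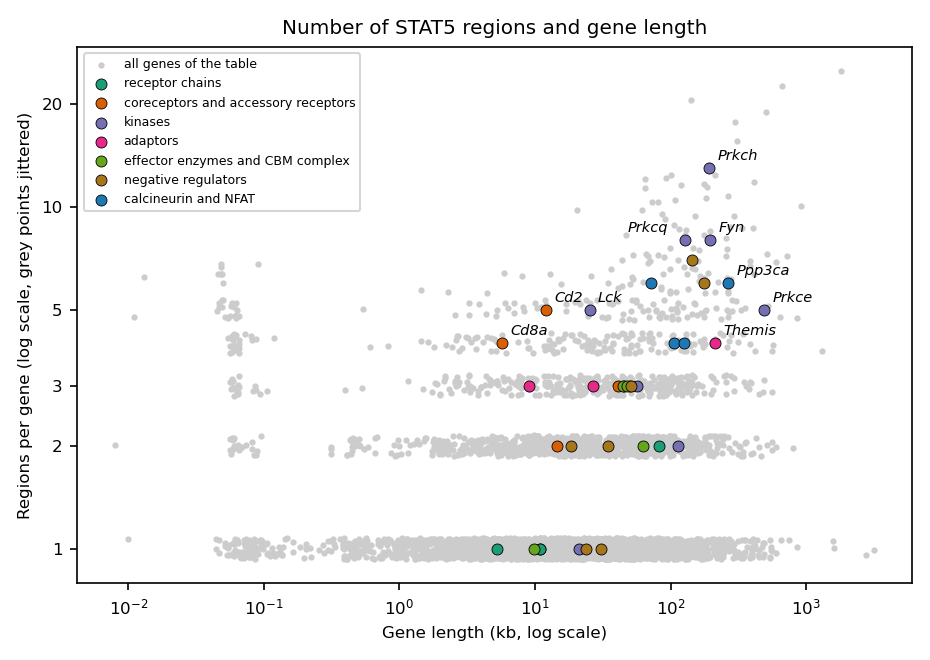
Number of regions against gene length in kb, both on log scales, for all 4934 listed genes (grey) and the 36 members (coloured by role). Long kinase genes such as Prkch (13 regions), Prkcq and Fyn (8 each) sit high, Prkce has 5 in 490.1 kb, and the short genes Cd8a and Cd2 have 4 and 5.

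The regions of the members lay mainly inside the genes. Of the 131 pairs of a member and a region, 92 were inside the gene (70.2%), 23 upstream (17.6%) and 16 downstream (12.2%). Over all 8337 pairs of the table, 4169 were inside the gene, 29.7% upstream and 20.3% downstream. Among genes with 4 or more regions, 77.6% of the members' pairs and 65.2% of all pairs were inside the gene. Gene length was not matched there, with a median of 136.3 kb for the members and 51.4 kb for all. A longer gene has more room for regions inside it. Within 1 kb of the deposited start were 12 of the 131 (9.16%), against 22.0% in the table. Among genes with 4 or more regions, which hold 85 of the 131 pairs, this share was 8.24% for the members and 8.86% for all genes. With any RefSeq start of the gene counted, which was added after seeing the data, Lck and Dgka gained a region each, and the shares were 10.7% and 23.6%. The members with a region within 1 kb of the deposited start were Cd8a, Cd2, Cd6, Zap70, Prkch, Sh2d2a, Themis, Rasgrp1, Csk, Nfatc1, Ppp3ca and Ppp3cc. Receptor chains had none there. Of the 131 pairs, 19 (14.5%) were with regions also assigned to another gene, against 52.2% in the table. A shared region counts once for each of its genes in these shares. Counted once each, 112 of the members' 128 regions and 3989 of all 5703 were assigned to no other gene. The share of pairs with a region also assigned to another gene was 57.1% for members and 62.8% for all among genes with 1 region. Among genes with 4 or more regions it was 7.06% and 38.9%. All regions of the adaptor, calcineurin and NFAT members were their own.

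**Figure D4:**
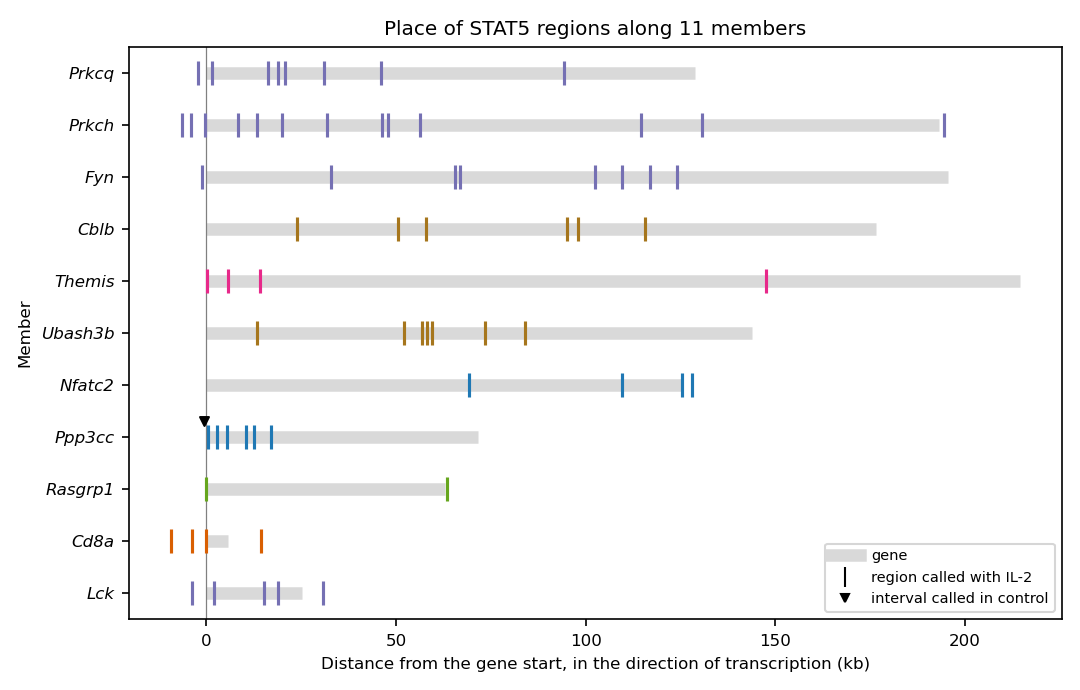
Regions called with IL-2 (bars) and the interval called in control near Ppp3cc (triangle), by distance from the gene start in kb in the direction of transcription, along 11 members (grey boxes show the genes). Regions of Cblb and Ubash3b lie deep inside the genes, and those of Nfatc2 deep inside the gene or beyond its end. Those of Ppp3cc lie within 17065 bases of the start, and those of Cd8a outside the gene.

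Peaks were higher than in the table as a whole, while ratios of gene means were close to it. The highest peak of a member had a median of 35, against 23 over all listed genes, and reached 100 or more in 7 of the 36 members (19.4%), against 4.88% of all genes. Those 7 were Prkcq (196), Rasgrp1 (140), Ppp3cc (135), Cblb (122), Fyn (121), Themis (119) and Cd8a (107). They came from 6 of the 7 roles, with none among the receptor chains. A highest peak is a maximum over regions, so genes with more regions have more chances of a high one. Among genes with 4 or more regions the median highest peak was 79.5 for the 14 members and 64 for all 407 genes, among those with 3 regions 30 (9 members) and 44, and among those with 1 region 16 (7 members) and 18. The members thus stood above the table only among genes with 2 regions (38 and 29) and with 4 or more.

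The log2 ratio of a gene was taken as log2 of the mean IL-2 height plus 5 over the mean control height plus 5. It was at least 1, a ratio of at least 2, in 32 of the 36 members, against 83.8% of all listed genes. The exceptions were Zap70 (0.71), Dgkz (0.77), Cd8b1 (0.92) and Plcg1 (0.98). A ratio of at least 4 was found for 9 of the 36 members, against 23.1% of all genes. They were Rasgrp1 (2.94), Prkcq (2.52), Themis (2.29), Fyn (2.20), Ppp3cc (2.17), Tec (2.14), Cblb (2.09), Cd8a (2.07) and Lcp2 (2.04). Medians were 1.46 for the members and 1.41 for all genes. By role the median log2 ratio was 1.90 for kinases, 1.67 for adaptors, 1.67 for calcineurin and NFAT, 1.47 for negative regulators, 1.26 for receptor chains, 1.23 for coreceptors and accessory receptors and 1.07 for effector enzymes and the CBM complex. When the heights of each library were rescaled so that the table-wide medians matched, the IL-2 side was higher for 21 of the 36 members (58.7% of all listed genes) and the control side for 15. That scaling shifted the median of all genes from 1.41 to 0.13 and that of the members from 1.46 to 0.08. A ratio of at least 2 was then left for Rasgrp1 (1.44) and Prkcq (1.08), against 11.9% of all genes. The scaled ratio was above 0 for all 4 calcineurin and NFAT genes and for 6 of 8 kinases, and below 0 for Cd3d, Cd3g and Cd3e and for Cd2, Cd6 and Cd8b1. Among adaptors 3 were above 0 and 1 below, among effector enzymes and CBM genes 2 and 3, and among negative regulators 4 and 3. Some of these values lay near 0, such as 0.015 at Nfatc1 and -0.087 at Cd2, and Cd3d and Cd3g share 1 region. Equal medians take out, by construction, any rise with IL-2 common to the whole table. Which scaling is right cannot be told from the table, and the direction of the 15 members higher in control after scaling rests on it.

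**Figure D5:**
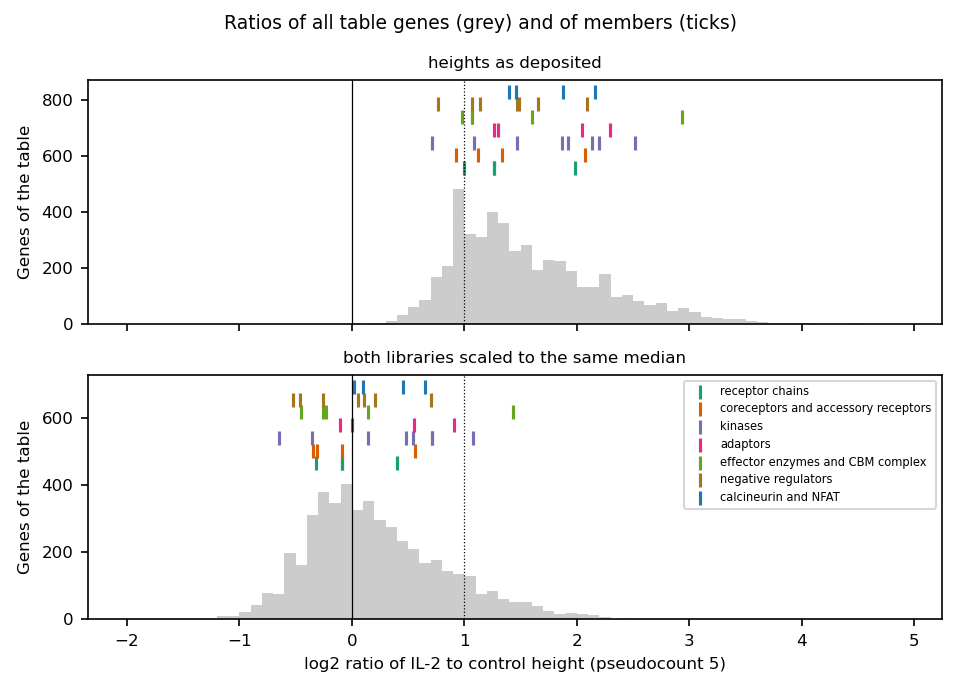
Log2 ratio of IL-2 to control mean height, with 5 added to each, for all 4934 listed genes (grey histogram) and the 36 members (ticks coloured by role), with heights as deposited (top) and with the medians of the libraries made equal (bottom). The dotted line marks a ratio of 2, which 32 members reach as deposited and 2 after scaling.

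Of 61 further genes of the pathway, 34 were in the table (55.7%, against 87.8% of the members), 30 with a ratio of at least 2 and 8 with at least 4, and after scaling 26 were higher with IL-2 and 8 in control. Their median log2 ratio was 1.55, their median highest peak 30 and their median number of regions 1.5, against 1.46, 35 and 3 for the members. The largest log2 ratios were those of Cabin1, a calcineurin inhibitor (3 in control, 56 with IL-2 and a log2 ratio of 2.93), Tab2, which links to the IKK branch (3.5 and 46.5, 2.60), and Itpr1, a calcium channel of the endoplasmic reticulum (4.22 and 44.78, 2.43). Itpr1 had 9 regions and a highest peak of 166, above every member but Prkcq. Next were Ppp3cb, the beta form of the calcineurin subunit (4 and 43, 2.42), at a region shared with Usp54 and 1810062O18Rik, and Fyb, an adaptor bound by Lcp2 (5 and 36, 2.04). The smallest were those of Sit1, an inhibitory transmembrane adaptor (9 in control and 16 with IL-2, 0.58), Map2k1, the MEK1 kinase (5 and 11, 0.68), and Grap, an adaptor of the Grb2 family (4 and 11, 0.83). Calcineurin genes were thus listed with all 3 catalytic subunits and an inhibitor, while Ppp3r1, a regulatory subunit, and Rcan1, another inhibitor, had no row.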

How the data were processed

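STAT5 chromatin was recovered with an anti-STAT5 antibody in 1 control and 1 IL-2 library, and per the labels' protocols the assay was a STAT5A ChIP-seq by a service company. BWA and the mm10 build are named, per the submitters' processing notes. The sources used here do not state the peak caller, read extension, scaling or depth. The deposited values are signal heights, given per gene as a mean over its regions for each library and as the highest peak. No column of other samples was present (0 columns).

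Gene symbols were matched exactly. The mean times the number of regions gave the summed height, and heights of regions were bounded by linear programming over genes that share regions, with Python 3.11.15 and scipy 1.17.1, tested on simulated heights. Positions were computed from the deposited start and distance, and 95.5% of the 5703 regions lie on a multiple of 16 bases, so a position is no sharper than that. All 36 listed members matched RefSeq (GRCm38.p6, the mm10 build). Ratios used a pseudocount of 5. The members and lists were chosen with earlier results of these data known. Every listed member is named, and of the other pathway genes the 6 largest and 3 smallest ratios, of which 1 gene is not reported here. The alternatives were pseudocounts of 1 and 10, ratio rules of 1.5 and 4, scaling to equal medians, the highest peak as IL-2 value, members with unshared regions, closer regions and a distance of 5 kb. Chromosome 18 sequences are not shown.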

Additional observations from a re-analysis of the deposited data

How the results depend on the processing

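No paired analysis was possible because there was only 1 library in each group. A ratio of at least 2 was reached by 32 members as reported, by 21 with a pseudocount of 10, by 2 after scaling to equal medians and by 9 with the ratio rule of 4, and was within 1.5 times of 32 with a pseudocount of 1, a rule of 1.5, the highest peak, or without Ppp3cc and Prkce. A larger pseudocount, scaling to equal medians and a stricter rule lower counts by construction. The same settings gave 2784, 586 and 1141 of all 4934 genes. In place of a median log2 ratio of 1.46, a pseudocount of 1 gave 1.95, a pseudocount of 10 gave 1.12 and scaling gave 0.078. The highest peak gave 2.00, and the 24 members with unshared regions gave 1.48. Over all listed genes, in place of 1.41, the settings in the same order gave 2.00, 1.06, 0.13, 1.53 and 1.47. The members thus lay below all genes with a pseudocount of 1 and with scaling, and above them with the others. With scaling the ratio changed sign for 11 members called before: Bcl10 (-0.26), Cd2 (-0.087), Cd3d (-0.090), Cd3e (-0.32), Cd3g (-0.090), Cd6 (-0.31), Dgka (-0.46), Prkce (-0.36), Sh2d2a (-0.10), Sla (-0.26) and Vav1 (-0.23). Whether called before or not, 15 of the 36 members and 2036 of all 4934 genes had a scaled ratio below 0. The median highest peak of 35 became 42.5 for unshared regions, and the median of 3 regions became 3.93 per 100 kb. The share near a start of 9.16% became 25.2% within 5 kb and 10.7% with any RefSeq start. Over all listed genes these values were 23 for unshared regions, 3.10 per 100 kb, 40.5% within 5 kb and 23.6% with any RefSeq start. Of the 41 genes, 36 of them listed, 31 had a region inside or within 1 kb of the start and 30 one assigned to no other gene. Of all 4934 listed genes, 3259 and 2239 had such a region. Depth is unknown, so counting error could not be given. The setting without Ppp3cc and Prkce and that with any RefSeq start were chosen after seeing the data.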
